A study of Caenorhabditis elegans with 12 samples.

Results

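The lysate that enters a vIPR pulldown (in vivo Interactions by Pulldown of RNA, the capture of a chosen RNA with its bound proteins from crosslinked worms) was compared with total RNA of the same *C. elegans* strain. The comparison rests on 2 of the 12 RNA sequencing libraries of the series, 1 on each side, so it has no replicate check and no p-value was computed. The libraries were chosen by their labels, as the total RNA and the PAR-XL input of strain BS1080. They cover 46724 gene entries after ribosomal RNAs, 3 entries that overlap them and spike-ins were left out. Of these entries, 12588 were compared, because they had a mean level above 1 TPM (the copies of a transcript among 1000000 transcripts, a level per transcript length) as the mean of both libraries and 100 or more estimated counts when both were added up. Among the other 34136 entries, 23931 had no count in either library and 10205 were below these limits.

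BS1080 carries a *gld-1::gfp* transgene beside endogenous *gld-1*, and both libraries came from young adults. For the input, worms were grown in liquid culture with 4-thiouridine, a photoreactive nucleoside, and crosslinked with long-wave UV light (PAR-XL). They were then ground in frozen form and lysed in an SDS buffer, and the cleared, diluted lysate was digested with proteinase K before RNA extraction. For the total RNA, worms described as not crosslinked were broken with beads in Trizol, a phenol reagent. The title of this library nevertheless also carries the PAR-XL label. Whether its worms had been given 4-thiouridine is not given in the sources used here. Both libraries were depleted of ribosomal RNA, received the same ERCC mix (synthetic spike-in RNAs). The labels name a stranded library kit for them, whereas the methods of the study describe a kit that does not mark strand, so reads of genes that overlap on opposite strands cannot be told apart here. Crosslinking, lysis, clearing and library preparation cannot be told apart as sources of a difference, since all of them were particular to the same library. The same holds for the preparation of the worms, and for 4-thiouridine and culture if these differed. The 3 inputs of conventional crosslinking (cXL, short-wave UV light without 4-thiouridine) are set beside them as values. They came from BS1080, from N2, the wild type, and from DG3913, which carries *gfp::lin-41*. By the methods of the study, unlabeled worms grew on plates and were typically harvested after fewer hours than those in liquid culture. Culture, 4-thiouridine and crosslinking therefore cannot be told apart between the PAR-XL and cXL inputs.

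An input is the reference against which a pulldown is read, and it can hold only RNA that the lysis brings into solution. Most RNA molecules of an animal are ribosomal, and the remainder includes messenger RNAs and short structured RNAs such as the signal recognition particle RNA, which helps to bring ribosomes to the endoplasmic reticulum, the RNase P RNA, which processes tRNA precursors, and snoRNAs, which guide modification of ribosomal RNA in the nucleolus. Histone messenger RNAs made during DNA replication end in a stem-loop in place of a poly(A) tail, and young adults hold them in the germline, where cells still divide.

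Sequencing depth was 21281117 estimated counts for total RNA against 33638221 for the input, of which 18574971 and 26695650 were kept. In deposited TPM, ribosomal RNA with the 3 entries that overlap it made up 12.5% of the total RNA library and 16.5% of the input. In these values F31C3.9, the large-subunit ribosomal RNA, was at 14219 TPM in total RNA and 26510 TPM in the input. The mitochondrial large-subunit RNA MTCE.33 was at 21813 and 18447 TPM, and MTCE.7, also mitochondrial and the most abundant, at 66075 and 70118 TPM. The spike-ins together were at 857 TPM in total RNA and 2203 TPM in the input. A count of 3, used as the floor where a gene had none, corresponds to 0.162 counts for each 1000000 counts kept (CPM) in total RNA and 0.112 CPM in the input.

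Short entries were not counted alike. The median difference between length and effective length, which follows the fragment length set for each library in counting, was 150 nt in total RNA and 220 nt in the input. In total RNA the shortest entry with at least 1 count had 108 nt, and in the input it had 177 nt. Entries under 150 nt held 1215 counts in total RNA and 0 in the input, and entries under 200 nt held 5318 and 196 counts. In the cXL inputs, with differences of 285 to 313 nt, the shortest counted entries had 269, 284 and 302 nt. A level of 0 for an entry below these lengths therefore says nothing on whether its RNA was in the lysate. Of the 46724 gene entries, every one annotated as a miRNA (257), piRNA (15365) or tRNA (637) was at 0 counts in both libraries, and the longest entry of these tRNAs had 115 nt.

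Across the genes compared, levels in the input followed those in total RNA. The median protein-coding gene had an input level of 0.822 of its total RNA level (log2 -0.28). Ratios are therefore given relative to this median, and a relative ratio of 1 is that of the median coding gene. By this measure 193 genes (1.53%) were at least 2-fold higher in the input, 618 genes (4.91%) were at least 2-fold lower, and 11777 genes (93.6%) were within 2-fold. Without division by the median, 118 genes were at least 2-fold higher and 1265 at least 2-fold lower, so the balance between the directions rests on it. The central 90% of relative ratios ran from 0.502 to 1.55, and the middle quartiles from 0.790 to 1.20. At a 4-fold limit 47 genes were higher and 47 were lower. At the limits themselves, *oac-13* was just inside at 2.01 and Y116F11B.2 just outside at 1.9991, and the genes nearest to the lower limit were at 0.499799 and 0.500001.

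**Figure D1:**
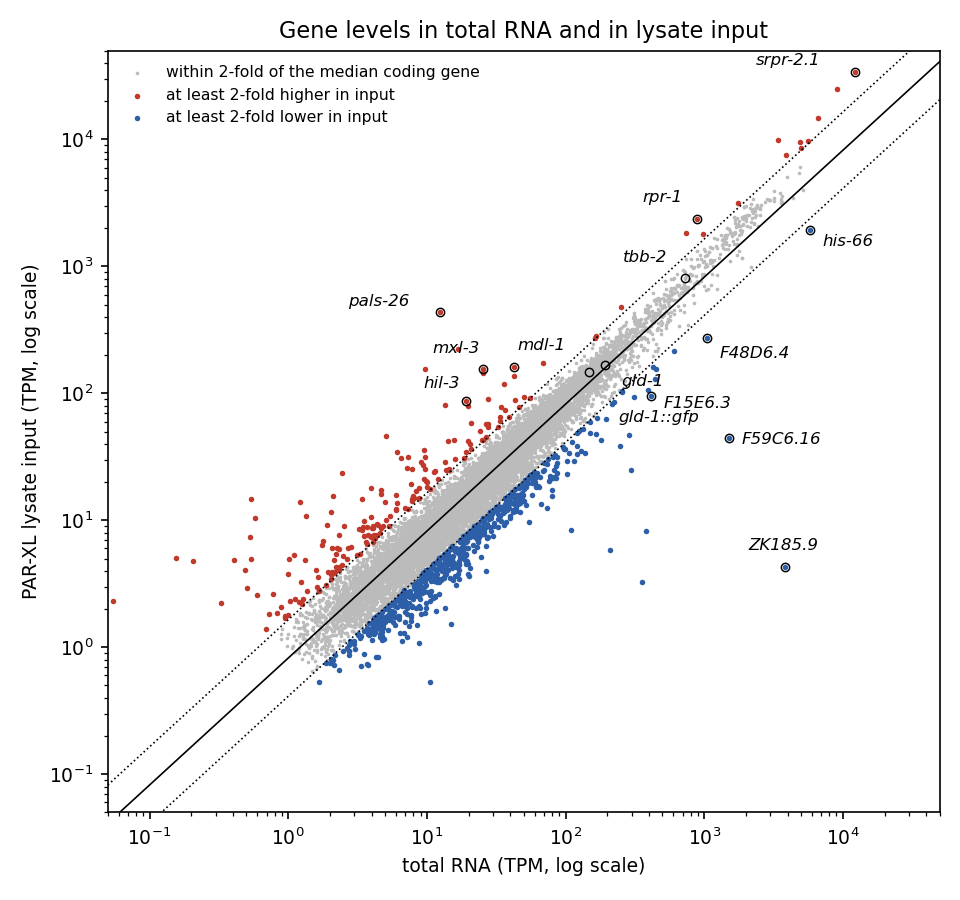
Level of each gene compared in total RNA (x axis) and in the PAR-XL input (y axis), in TPM on log scales. Each point is a gene in 1 library a side, the solid line is the median coding ratio and dotted lines are 2-fold from it. Most points lie between the dotted lines, and 13 genes below 0.05 TPM in a library are not drawn.

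The 193 higher genes together made up 57405 TPM of total RNA and 134488 TPM of the input. The 618 lower genes made up 38863 and 8493 TPM. Genes of both sets were of low level, with a median mean TPM of 9.01 for the higher and 10.1 for the lower set, against 22.2 for all genes compared. Reads shared between near-identical entries, seen as estimated counts that are not whole, affected 1891 genes compared (15.02%). They affected 70 of the 193 higher and 104 of the 618 lower genes, and the values of such genes are uncertain. In CPM, which is not corrected for length, 168 of the 193 remained at least 2-fold higher and 558 of the 618 at least 2-fold lower. Without genes under 300 nt, a limit chosen after the data were seen, 187 were higher and 592 lower.

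The 3 RNAs that the pulldown was built around differed little. Endogenous *gld-1*, which encodes a germline RNA-binding protein (chromosome I, 7695661 to 7698154, plus strand, WBcel235), was at 193 TPM in total RNA and 168 TPM in the input. Its relative ratio was 1.06 (95% counting interval 1.02 to 1.09). The *gld-1::gfp* transgene, the target of the *gfp* probes, was at 148 TPM in both libraries, with a relative ratio of 1.21 (1.18 to 1.25). *tbb-2*, a beta tubulin used as the control RNA (chromosome III, 4015769 to 4017643, minus strand), was at 727 and 807 TPM, with a relative ratio of 1.35 (1.33 to 1.38). All these ratios lay inside the central 90% of genes. Intervals given here cover counting error alone, and reads copied by PCR are not independent molecules. The transgene fuses *gld-1* with *gfp*, so reads outside *gfp* can belong to either entry. The intervals of *gld-1* and *gld-1::gfp* do not cover the error of that split. In the cXL inputs of BS1080, DG3913 and N2, *gld-1* was at 272, 595 and 569 TPM and *tbb-2* at 889, 1144 and 1197 TPM, and *gld-1::gfp* was at 217 TPM in BS1080.

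The spike-ins show how far RNAs that were not part of the lysate differed between the libraries. Of 92 spike-ins, 12 had at least 100 counts in each library, with lengths from 505 to 1107 nt. Relative to their own median, their ratios ran from 0.775 to 1.07, with an SD of 0.16 on the log2 scale. Genes of the same length range and counts (2569 genes) had an SD of 0.45, and 62.2% of them lay outside the range of the spike-ins. With at least 1000 counts in each library, the SD was 0.059 for 4 spike-ins and 0.37 for 511 genes. The depth of genes and spike-ins was not matched beyond these minimum counts. The spike-ins carry the error of library preparation and sequencing, and not that of separate worm preparations.

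**Figure D2:**
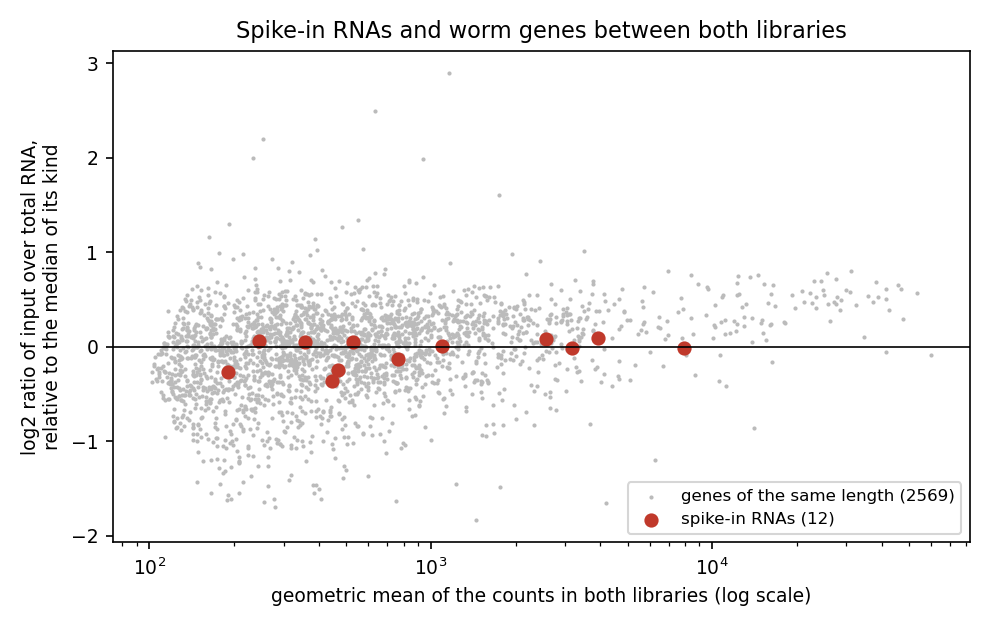
Log2 ratio of input over total RNA, relative to the median of each set, for 12 ERCC spike-ins and for 2569 genes of the same length range with at least 100 estimated counts in each library. The spike-ins spread over an SD of 0.16 and the genes over an SD of 0.45.

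By RNA biotype, the share of protein-coding genes was 94.8% of TPM in total RNA and 91.3% in the input, and that of the class annotated as ncRNA was 3.87 and 7.97%. In CPM the ncRNA share was 0.653 and 0.854%, so the size of this difference depends on the unit. Of 39 ncRNA genes compared, 12 were higher and 6 lower, with a median relative ratio of 1.17 (1.09 in CPM). Over all genes compared, 1.53% were higher and 4.91% lower. The 35 lincRNA genes compared had a median of 1.24, with 5 higher and 1 lower. The 211 pseudogenes had a median of 0.98, with 11 higher and 17 lower.

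Signal recognition particle RNA accounted for most of the ncRNA class. The 5 genes (a list added after their values were seen) made up 24870 TPM of total RNA and 69172 TPM of the input, a relative ratio of 3.38, or 2.01 in CPM. *srpr-2.1* was at 12313 and 34244 TPM (relative ratio 3.38) and *srpr-2.2* at 9040 and 24941 TPM (3.36), each 299 nt long. *srpr-1.2* (293 nt) was at 3383 and 9944 TPM (3.58). These entries are near-identical and share reads, so their sum is firmer than any of them. The sum was 127913 TPM in the cXL input of BS1080, 0.688 in that of DG3913 and 0 in that of N2. The differences between length and effective length in DG3913 and N2, 301 and 313 nt, exceed these lengths. That of BS1080, 285 nt, lies just below them, so its sum cannot be compared in level either. The 46 genes of 250 to 300 nt had a median of 1.14 in TPM and 0.653 in CPM, below the values of the particle RNA on either scale. *srpr-3*, the member with whole counts, was at 28.02 and 43.5 TPM (1.89).

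Other noncoding RNAs were higher in TPM. *rpr-1*, the RNase P RNA (253 nt), was at 887 TPM in total RNA and 2359 TPM in the input, a relative ratio of 3.24 (3.05 to 3.44), and at 1.66 in CPM it stayed under 2-fold. *rncs-1*, a structured noncoding RNA that can inhibit Dicer, was at 9.47 and 35.6 TPM (4.57). *lfor-2* (302 nt) was at 738 and 1846 TPM (3.04) and *lfor-1* (299 nt) at 979 and 1810 TPM (2.25), both with shared reads and 1.83 and 1.34 in CPM. C23H5.10, also with shared reads, was at 5.06 and 46.3 TPM (11.1). *srpr-1.1*, the fifth member of the particle RNA, was at 107 TPM (267 counts) in total RNA and at 0 counts in the input. Its 293 nt lie whole inside the entry of *pals-26* on the same strand (chromosome III, 4378907 to 4379199 within 4376503 to 4379200). *pals-26* was at 12.4 and 438 TPM, and reads of these entries cannot be told apart, so its relative ratio of 43.1 is not read as that of a protein-coding gene.

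The snoRNAs as a class held 5145 counts in total RNA and 377 in the input, and 115 and 31 of 345 genes had a count. This difference was that of entries under 300 nt, with 4902 and 139 counts, while the 4 longer entries held 243 and 238. K10D3.10 (325 nt) was at 75.2 and 69.8 TPM, a relative ratio of 1.13. ZK185.9 (215 nt, chromosome IV, 4538702 to 4538916, minus strand) held 4399 of the counts in total RNA and 4 in the input, or 3859 and 4.32 TPM (735-fold lower in relative ratio). Its length is between those of the shortest counted entry and the 220 nt of the input. Near it in length, Y39A3CL.3 (221 nt) held 109 and 73 counts, with a relative ratio of 1.03, while F56D6.8 was at 0.0113. The 18 genes of 200 to 250 nt had a median of 0.304, with 12 lower. The low value of ZK185.9 cannot be told apart from the limits of counting at this length. The snRNAs, of which the longest entry has 187 nt, held 82.6 counts in total RNA and 0 in the input.

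Transcript length went with the ratio among short genes, which were not counted alike. The shortest counted entry had 108 nt in total RNA and 177 nt in the input. Lower ratios at such lengths therefore cannot be read as less RNA in the lysate. All 5 genes under 200 nt were at least 2-fold lower, as were 12 of 18 genes of 200 to 250 nt, whose median was 0.304. From 500 to 1000 nt upwards the medians of the length classes were between 0.964 and 1.01 in TPM. In CPM the class of 200 to 500 nt had a median of 0.782 against 1.02 in TPM, and the 2000 to 4000 nt class 1.05 against 0.997. Among the shortest, F07C3.9 (162 nt) and W02A2.9 (174 nt) held 236 and 259 counts in total RNA and 0 in the input, below its shortest counted entry. F56D6.8 (214 nt) held 397 and 3 counts, a relative ratio of 0.0113 (0.00362 to 0.0351), and F59C6.16 (239 nt) 2358 and 54 counts, or 1515 and 44.9 TPM (0.0360). In the same length range *rpl-39* (247 nt), a ribosomal protein gene, was at 1916 and 2117 TPM (1.34, and 0.684 in CPM). All these genes were at 0 in the 3 cXL inputs. The *nspa* family, nematode-specific peptides, summed to 1738 and 20 counts, and its member *nspa-5* has 179 nt.

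**Figure D3:**
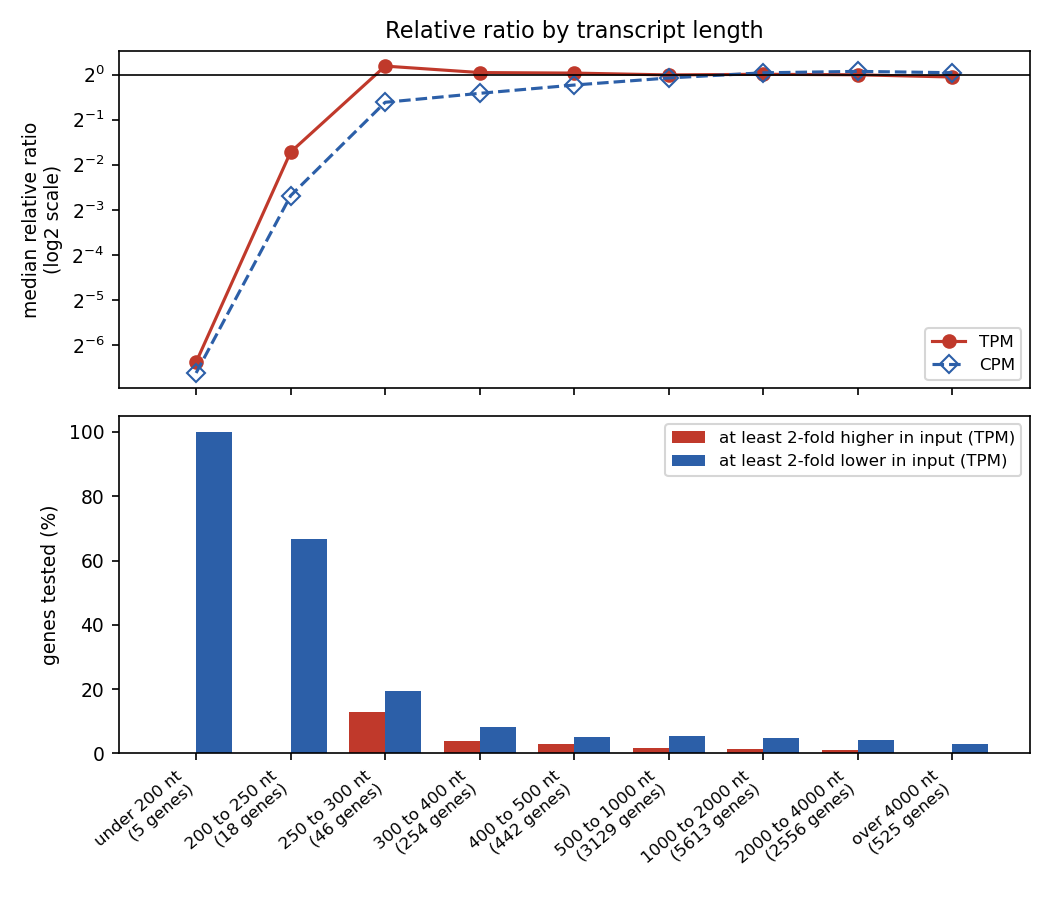
Median relative ratio of input over total RNA by transcript length class, in TPM and in CPM (top), and percent of each class at least 2-fold higher or lower (bottom). All 5 genes under 200 nt were lower, a length at which the libraries did not count entries alike. The medians in TPM lie near 1 from 500 nt upwards.

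Histone genes stood above the median coding gene. Of 59 compared, 10 were higher (16.9%) and 4 lower (6.78%), against 1.53% and 4.91% of all genes compared. Their median relative ratio was 1.76 (1.29 in CPM, where 5 were higher and 4 lower). Their sum was 51363 TPM in total RNA against 76664 TPM in the input, a relative ratio of sums of 1.82. Copies of core histone genes are near-identical, and 55 of the 59 had shared reads, so single copies are uncertain. *his-58* was at 6585 and 14814 TPM (2.74) and *his-47* at 4950 and 9534 TPM (2.34), while *his-66* was at 5771 and 1943 TPM (0.410). The other lower copies, *his-55*, *his-57* and *his-65*, had relative ratios of at most 0.000592, 0.000702 and 0.00273. Histones of the replacement type, which are made outside DNA replication, lay at or below the median gene: *his-72*, an H3.3 gene, was at 278 and 226 TPM (0.987) and *his-71*, another, at 93.7 and 67.5 TPM (0.877). In the cXL inputs of BS1080, DG3913 and N2 the histones summed to 107776, 89382 and 136858 TPM, all above both libraries compared here. Their median length was 405 nt, and the difference between length and effective length was 285 to 313 nt in those inputs. TPM of genes this short depend on that difference, so the histone sums cannot be compared in level with those of the cXL inputs.

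The linker histones, which bind DNA between nucleosomes, were added as a list after their values were seen. Of 7 compared, 3 were higher and 0 lower, against 1.53% and 4.91% of all genes compared, with a median of 1.42. *hil-3*, with whole counts, was at 19.01 and 87.8 TPM, a relative ratio of 5.62 (4.91 to 6.43), and at 12.3, 31.05 and 24.7 TPM in the cXL inputs. *his-24* was at 25.5 and 144 TPM (6.86) and *hil-2* at 43.5 and 88.7 TPM (2.48), both with shared reads. *hil-1* was at 76.9 and 41.3 TPM (0.654). The PAR-XL input was thus higher in *hil-3* than total RNA and than each cXL input.

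Several groups of abundant genes lay above the median gene by less than 2-fold. The 81 cytosolic ribosomal protein genes had a median of 1.46 (1.35 in CPM), and 80 of them lay above the median coding gene, with 1 higher and 0 lower. Their sum was 144815 TPM in total RNA against 172282 TPM in the input. The member past the limit was *rpl-43*, at 1758 and 3157 TPM (2.18, and 1.61 in CPM), and the lowest was *rpl-42* (0.884). The tubulins had a median of 1.35 over 9 genes, the eggshell genes 1.34 over 10, the proteasome subunits 1.25 over 33 and the germline RNA-binding proteins 1.23 over 30, with 0 genes past 2-fold in each list. The 134 cuticle collagens had a median of 1.33, with 3 higher and 1 lower, against 1.53% and 4.91% of all genes compared.

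**Figure D4:**
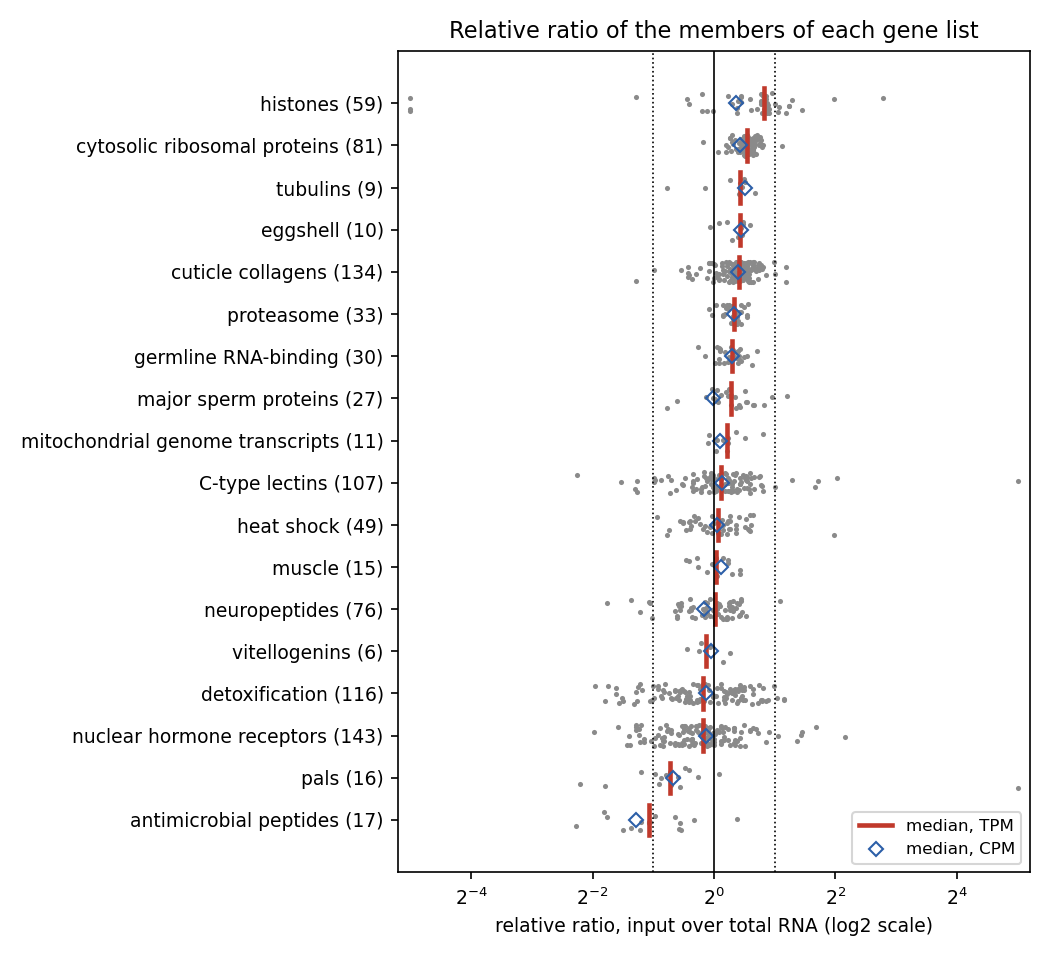
Relative ratio of input over total RNA for the genes of 18 lists (log axis), with the number of genes compared in brackets. Points are genes in 1 library a side, the red bar is the median in TPM and the blue diamond the median in CPM, and 5 genes beyond 32-fold are drawn at the axis limit. Among lists of 10 or more genes, histones have the highest median in TPM (1.76). In CPM theirs is 1.29, below that of the eggshell genes (1.36). Antimicrobial peptides, a list added after its values were seen, have the lowest (0.477).

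Other abundant groups were close to the median gene. The 15 muscle genes had a median of 1.03, the 5 actins 1.07 and the 11 transcripts of the mitochondrial genome 1.16, with 0 past 2-fold in each. The vitellogenins, yolk proteins made in the intestine, had a median of 0.910 over 6 genes. The 27 major sperm protein genes, all with shared reads, had a median of 1.21 in TPM and 0.989 in CPM. Among 49 heat shock genes (median 1.05), the 1 past the limit was *hsp-16.1*, a small heat shock protein, at 36.2 and 118 TPM (3.96, with shared reads). The 107 C-type lectins, many of them secreted, had a median of 1.09. Of these lectins 6 were higher and 5 lower, against 1.53% and 4.91% of all genes compared.

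The detoxification genes were mixed. Of 116 genes 3 were higher and 17 lower, against 1.53% and 4.91% of all genes compared, and their median was 0.887, while the relative ratio of their summed TPM was 1.11. The 27 glutathione S-transferases (*gst*) had a median of 1.36, with 1 higher and 1 lower, and the 49 glucuronosyltransferases (*ugt*) a median of 0.823, with 2 higher and 6 lower. Of 40 cytochrome P450 genes (*cyp*), with a median of 0.776, 10 were lower and 0 higher, such as *cyp-14A5* at 87.0 and 23.4 TPM (0.327), *cyp-34A2* at 61.3 and 22.1 TPM (0.438) and *cyp-34A9* at 34.2 and 9.94 TPM (0.354). Of 143 nuclear hormone receptors, transcription factors that are numerous in nematodes, 6 were higher and 15 lower, with a median of 0.883. The 76 neuropeptide genes had a median of 1.01, with 1 higher and 6 lower. Level itself went with the ratio: over 10 groups of equal size by mean TPM, the median was 0.93 in the lowest group, 0.88 in the third and 1.17 in the highest.

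Some of the genes counted among the neuropeptides encode antimicrobial peptides of the epidermis. A list of antimicrobial peptides, added after their values were seen, joined these *nlp* genes with the caenacins (*cnc*) and the antibacterial factors (*abf*). In it 10 of 17 genes were lower and 0 higher, against 4.91% and 1.53% of all genes compared. The 17 genes had a median of 0.477, and of 0.410 in CPM. Their median length was 408 nt. The class of 400 to 500 nt had a median of 1.02 (0.852 in CPM) and that of 300 to 400 nt 1.03 (0.750 in CPM). *nlp-29* was at 196 TPM in total RNA and 62.3 TPM in the input (0.386), *nlp-34* at 179 and 43.1 TPM (0.293) and *cnc-4* at 165 and 48.1 TPM (0.354). Not every member was low: *nlp-28* was at a relative ratio of 0.687 and *cnc-3* at 1.29. As a sum the list was at 1927 TPM in total RNA and 812 TPM in the input, and at 292, 468 and 244 TPM in the cXL inputs of BS1080, DG3913 and N2. The shortest member compared has 238 nt, below the shortest counted entries of the cXL inputs. Such members cannot be counted there, so the lower cXL sums are not read as lower levels.

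Further families with low ratios were found by name among the 115 families of at least 10 genes compared, and were chosen after their values were seen. Their counts stand beside 1.53% higher and 4.91% lower among all genes compared. Of 21 *math* genes, which encode MATH domain proteins, 12 were lower and 0 higher, with a median of 0.429. On chromosome II lay 20 of the 21, and 10 had shared reads. *math-18*, with whole counts, was at 12.2 and 2.61 TPM (0.261), and *math-27* at 60.9 and 18.7 TPM (0.374). The family was at 348 TPM in total RNA against 183 TPM in the input as a sum, and at 176, 235 and 173 TPM in the cXL inputs. The peroxins (*prx*), which build peroxisomes, had 4 of 11 genes lower and a median of 0.628, with *prx-12* at 12.9 and 4.38 TPM (0.414). Of 27 carboxylesterase genes (*cest*) 6 were lower and 1 higher, and of 11 P-glycoprotein transporters (*pgp*) 3 were lower, such as *pgp-6* at 32.4 and 8.81 TPM. The O-acyltransferase homologs (*oac*) went the other way, with 5 of 18 higher and 2 lower.

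Single protein-coding genes with whole counts reached relative ratios above 4. *mxl-3*, a Max-like transcription factor (chromosome X, 13349640 to 13350804, minus strand), was at 25.4 TPM in total RNA and 155 TPM in the input, a relative ratio of 7.44 (6.69 to 8.27). *mdl-1*, a Mad-like factor of the same network (chromosome X, 6742393 to 6743902, plus strand), was at 42.2 and 161 TPM (4.64, 4.30 to 5.01). In the cXL inputs of BS1080, DG3913 and N2 *mxl-3* was at 38.1, 68.7 and 50.7 TPM and *mdl-1* at 35.0, 37.1 and 55.2 TPM. Both genes were thus higher in the PAR-XL input than in each of the other 4 libraries. The related *mxl-1*, *mxl-2* and *mml-1* were at relative ratios of 1.27, 1.10 and 1.00.

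Other genes of this kind had varied roles. *oac-31* was at 6.12 and 34.6 TPM (6.87), *tsp-2*, a tetraspanin membrane protein, at 7.30 and 31.7 TPM (5.29), and *swt-3*, of the SWEET sugar transporter family, at 19.8 and 79.9 TPM (4.91). *nhr-55*, a nuclear hormone receptor, was at 4.67 and 17.2 TPM (4.48). Just below this range, F26A3.4 was at 27.8 and 90.3 TPM (3.95).

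Genes with whole counts at the low end included some of the better expressed ones. F48D6.4 was at 1053 TPM in total RNA and 275 TPM in the input (0.318), F15E6.3 at 415 and 95.8 TPM (0.281) and *npa-1*, a lipid-binding polyprotein, at 448 and 156 TPM (0.424). K07B1.8 was at 439 and 129 TPM. *pqn-92*, of the glutamine- and asparagine-rich proteins, was at 66.7 and 13.4 TPM (0.244), *lact-1*, which has a beta-lactamase domain, at 26.9 and 3.98 TPM (0.180), and *ugt-4*, a glucuronosyltransferase of the detoxification list, at 24.5 and 5.17 TPM (0.257). These values lie below the range of the spike-ins, but the spread between replicate lysates was not measured in these libraries.

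**Figure D5:**
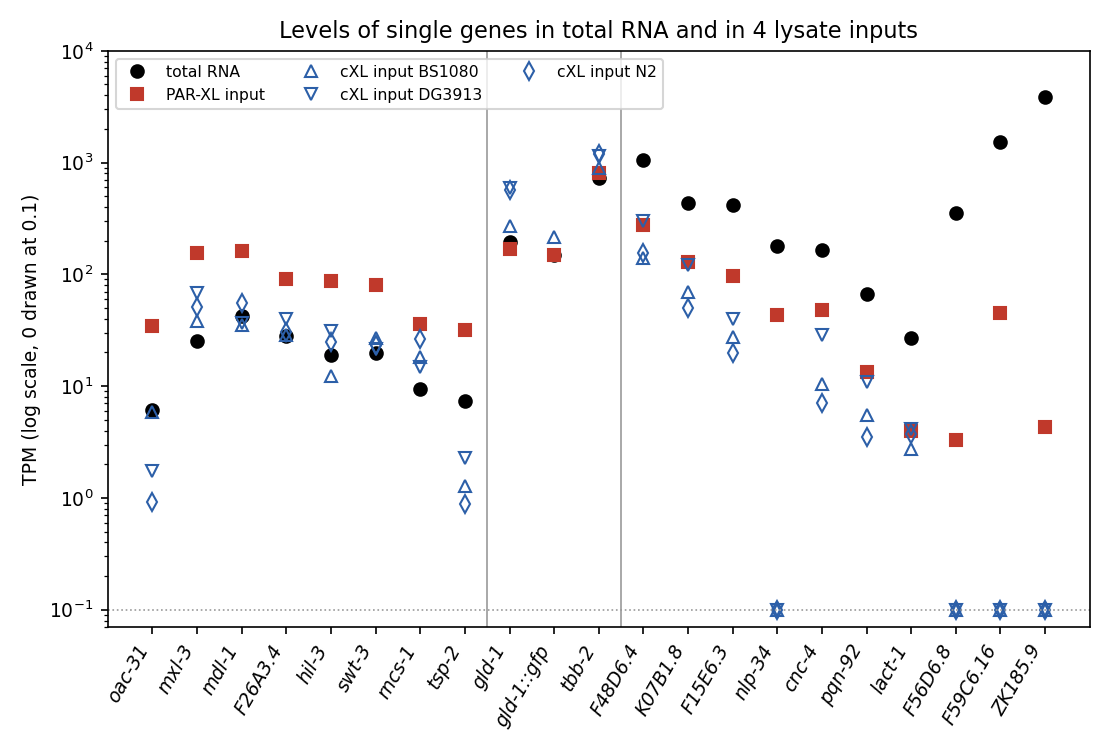
Levels in TPM (log axis) of named genes in total RNA, in the PAR-XL input and in the 3 cXL inputs, grouped as genes higher in the input, the study's own RNAs and genes lower in the input. Each point is 1 library and 0 is drawn at 0.1 TPM. *mxl-3* stands at 155 TPM in the PAR-XL input and at most 68.7 TPM in the other libraries.

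Markers of tissues and stages, chosen by gene symbol, were measured in both libraries. The 6 oocyte markers had a median relative ratio of 1.22, the 8 germline markers 1.18, the 5 body wall muscle markers 1.02 and the 7 intestinal markers 0.862. The 6 hypodermal markers had a median of 1.33 and the 7 neuronal markers 0.965. The 4 pharyngeal markers had a median of 1.30, the 5 sperm markers compared 0.993 with 1 lower, and the 5 markers of larvae before the last moult 1.32, with a sum of 327 TPM in total RNA against 323 TPM in the input. Of 4 embryonic markers, 2 passed the limits, and these 4 summed to 5.62 and 4.61 TPM. The part of tissue makeup in the ratios above was not tested, and in bulk RNA fewer cells of a type cannot be told apart from less RNA per cell.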

How the data were processed

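The authors ran bcl2fastq, then kallisto (0.43.1, single-end mode) against the WBcel235 transcriptome with transgene and spike-ins, and set the fragment length for each library. The authors deposited, for each transcript, the length, the effective length, the estimated count (not normalized) and the TPM over the whole index. Here spike-ins, ribosomal RNAs (22 genes) and 3 overlapping entries were removed. The remaining TPM were scaled to 1000000 and added up per gene, with the transgene apart. CPM were computed from the estimated counts. Of 46724 identifiers 43672 matched a symbol, and coordinates are those of the transcript names.

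A gene was compared with a mean TPM above 1 and at least 100 estimated counts in both libraries together. Ratios of input over total RNA were divided by the median of coding genes and called at 2-fold, with a floor of 3 counts and 95% Poisson intervals on the log scale. With 1 library a side no p-value was computed. Lists, members and alternatives were chosen with earlier results of these data known. The rule for named genes picked the study's targets and the 10 highest and 10 lowest coding genes with mean TPM above 10. It also picked the 5 largest gains and losses and the 3 most abundant of each other biotype. Of each list it took the 4 most abundant and both extremes. Not all genes picked by the rule are given in the text, so the extremes shown are a selection. Other genes were named after their values were seen. Scripts (python 3.11.15 with pandas 2.3.3, numpy 2.4.6, matplotlib 3.10.9 and scipy 1.17.1) were tested on simulated data.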

Additional observations from a re-analysis of the deposited data

How the results depend on the processing

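With no TPM filter and at least 1 count in each library, 1421 genes were higher, 1626 lower and 84.6% within 2-fold, around a median ratio of 0.815. With a mean TPM above 10 these values were 80, 356, 95.03% and 0.849. Without division by the median 118 were higher and 1265 lower, at 4-fold 47 and 47, and with the counting interval beyond 2-fold 106 and 291. Leaving out genes with shared reads, chosen after seeing the data, left 123 higher and 94.0% within 2-fold. The median ratio was 0.872 in CPM, 0.784 with ribosomal RNA kept and 0.854 with coding genes alone. On log2(TPM + 1) it was 0.835, with 95.5% within 2-fold. The ncRNA share of total RNA and input was 0.653 and 0.854% in CPM, 3.39 and 6.98% with ribosomal RNA kept, and 3.94 and 8.08% without mitochondrial transcripts. In CPM the histone median was 1.29 and that of genes of 200 to 500 nt 0.782. The SD of the spike-ins with at least 1000 counts was 0.059. The cause of these shifts was not tested. Under these alternatives no named gene or list median past 2-fold reversed its direction. Nearer to 1 some did in CPM: major sperm proteins went from 1.21 to 0.989, neuropeptides from 1.01 to 0.896, genes of 250 to 300 nt from 1.14 to 0.653, *rpl-39* from 1.34 to 0.684, K10D3.10 from 1.13 to 0.739 and Y39A3CL.3 from 1.03 to 0.534. Of 54 genes past 2-fold that the rule for named genes had picked, 7 were no longer so in CPM (*flp-32*, *his-48*, *his-64*, *msp-56*, *rpl-43*, *rpr-1* and *srpr-2.2*), and *lfor-1* and *lfor-2*, named outside the rule, were not either. No paired analysis was possible because there was 1 library a side. The base composition of transcripts was not run. Depth limits genes of few counts, and length those under 300 nt.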

Other observations

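By chromosome, the 1601 genes on X had a median relative ratio of 0.90, with 16 higher (1.00%) and 94 lower (5.87%). Medians were 1.02 on I, 1.04 on II and III, 1.00 on IV and 0.96 on V. Among all genes compared 1.53% were higher and 4.91% lower, and on IV 5.79% were lower. Chromosome V, with 2396 genes compared, held 68 of the 193 higher and 183 of the 618 lower genes, or 2.84% and 7.64% of its genes. Of the 6 nuclear chromosomes, III had the fewest lower genes, with 48 of 2062.

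Of the 115 gene families with at least 10 genes compared, 56 had no gene past 2-fold and 57 had a median above 1. Potassium channels of the *twk* family had 2 of 26 genes higher and 5 lower, with a median of 0.748, against 1.53% and 4.91% of all genes compared. The aspartyl proteases *asp* had a median of 1.33 over 11 genes, with none past 2-fold.

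Several values of single genes would bear a second look. *atgp-2* was at 16.8 TPM in total RNA and 223 TPM in the input, with shared reads, and the pair of *atgp* genes summed to 45.7 and 248 TPM and to 29.2, 30.8 and 27.9 TPM in the cXL inputs of BS1080, DG3913 and N2. *fmo-2*, a flavin monooxygenase, was at 25.5 and 42.6 TPM (relative ratio 2.03) and at no more than 0.659 TPM in the cXL inputs. F54E2.5 held 2 counts in total RNA and 135 in the input (51.5, 12.7 to 208). *spe-11*, a sperm marker, was at 62.7 and 23.7 TPM (0.460). Of the higher genes 36 of 193, and of the lower 79 of 618, have an exon that overlaps that of another counted gene. The share among all genes compared was not computed, so it is open whether these counts are unusual. The strand setting of the counting is not given in the sources used here.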
